A study of Mus musculus with 7 samples.

Results

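The change of open chromatin between the E16 hindstomach and the E13 stomach of the mouse embryo was followed in ATAC-seq peak lists, in which each peak is a stretch of accessible DNA. The hindstomach list held 113117 peaks and the E13 stomach list 96877 on chromosomes 1 to 19 and X. Peaks of both lists that overlapped by at least 1 bp were merged, which gave 164611 regions, where merging all 7 lists of the series gave 326695. Each region was classed as hindstomach-only (69265 regions, 42.1% of the 164611), E13-only (52943, 32.2%) or shared (42403, 25.8%). The classes are defined by the presence or absence of a peak, since the lists hold no peak height or read count.

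Both libraries came from ShhCre; R26YFP/+ embryos with no treatment, a genotype in which the Cre recombinase of Shh-expressing cells, such as gut epithelium, switches on a YFP reporter. E16 hindstomach (E16.5 in the protocol) was cut from the forestomach at the squamous-glandular border and its epithelium was loosened in 10 mM EDTA; the protocol text used here breaks off within the E16 handling, so sorting and pooling at that stage are not given here. E13 stomach (E13.5 in the protocol) was the whole organ, digested with trypsin and sorted, with 50000 cells from 3 to 4 YFP+ embryos per assay. The hindstomach is thus a part of the organ and the E13 stomach is all of it, and stage, stomach part and isolation cannot be told apart. The other 5 libraries serve only to show where the regions recur: E16 forestomach, E16 small intestine, E16 colon, a Sox2 KO E16 stomach, whose strain, stomach part and isolation are not given in that text, and E13 intestine. Each group is 1 library, so no difference was tested, and the 95% Wilson intervals cover counting error only. In such bulk samples, a site open in fewer cells and a site less open in every cell cannot be told apart.

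The hindstomach becomes the glandular stomach, with mucus-secreting pit cells, acid-secreting parietal cells, pepsinogen-secreting chief cells and endocrine cells. At the earlier stage the stomach epithelium is a progenitor layer that sends Hedgehog ligands to the mesenchyme around it. Open chromatin at start sites often lies in CpG-rich promoters that are open in many tissues, whereas distant sites, many of them enhancers, differ more between cell types.

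Start-site sequences of 5 genes are shown as examples of start sites open in 1 of the 2 libraries. CpG content, AP-1 letters and SP letters differed between these classes over all genes, whereas GATA and TATA letters were about as frequent in hindstomach-only windows as in all windows. They are the 250 bases before the start from RefSeq on GRCm38.p6, 5′ to 3′ on the strand of the gene, and positions are counted back from the start, so that the base before it is -1. The first 3 had a hindstomach peak and no E13 stomach peak over the 300-base window from 250 bases before to 50 after the start. Anxa10 lies at chr8:62123194-62123443 on the minus strand, Gkn1 at chr6:87350916-87351165 on the minus strand and the upstream start of Cldn18 at chr9:99717268-99717517 on the minus strand. The other listed start of Cldn18, not printed, had a peak in both libraries. Capitals mark the AP-1 letters TGANTCA, the TATA letters TATAAA (Anxa10 only) and the GATA letters AGATAA (Gkn1 and Cldn18 only) on either strand.
Anxa10: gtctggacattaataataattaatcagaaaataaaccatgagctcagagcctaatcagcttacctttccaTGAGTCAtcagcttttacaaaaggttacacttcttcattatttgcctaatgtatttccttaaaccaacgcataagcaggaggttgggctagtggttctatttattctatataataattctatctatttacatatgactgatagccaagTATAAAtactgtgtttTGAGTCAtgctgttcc
Gkn1: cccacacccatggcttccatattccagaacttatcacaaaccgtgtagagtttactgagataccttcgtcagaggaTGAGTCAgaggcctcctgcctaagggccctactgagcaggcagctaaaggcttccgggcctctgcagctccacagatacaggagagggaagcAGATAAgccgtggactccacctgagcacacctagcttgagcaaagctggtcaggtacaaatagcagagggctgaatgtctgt
Cldn18: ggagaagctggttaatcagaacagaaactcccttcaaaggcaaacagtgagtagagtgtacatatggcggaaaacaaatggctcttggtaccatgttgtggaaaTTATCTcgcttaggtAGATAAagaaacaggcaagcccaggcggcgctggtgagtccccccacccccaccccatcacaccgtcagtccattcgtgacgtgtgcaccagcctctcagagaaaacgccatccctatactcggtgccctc
The AP-1 letters of Anxa10 begin at -180 and -16 and its TATA letters at -32. In Gkn1 the AP-1 letters begin at -174 and the GATA letters at -82. In Cldn18 the GATA letters begin at -146 and -131. The hindstomach peak was 369 bp wide at Anxa10, 391 bp at Gkn1 and 447 bp at Cldn18.

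The next pair had an E13 stomach peak and no hindstomach peak over the same window. Gli3 lies at chr13:15463473-15463722 on the plus strand and Hhip at chr8:80058009-80058258 on the minus strand. Capitals mark the SP letters GGGCGG on either strand.
Gli3: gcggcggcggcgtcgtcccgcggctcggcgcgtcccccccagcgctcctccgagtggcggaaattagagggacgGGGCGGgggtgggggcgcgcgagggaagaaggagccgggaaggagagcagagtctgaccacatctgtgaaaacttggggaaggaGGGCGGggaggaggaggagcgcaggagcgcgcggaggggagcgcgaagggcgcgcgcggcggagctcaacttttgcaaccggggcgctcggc
Hhip: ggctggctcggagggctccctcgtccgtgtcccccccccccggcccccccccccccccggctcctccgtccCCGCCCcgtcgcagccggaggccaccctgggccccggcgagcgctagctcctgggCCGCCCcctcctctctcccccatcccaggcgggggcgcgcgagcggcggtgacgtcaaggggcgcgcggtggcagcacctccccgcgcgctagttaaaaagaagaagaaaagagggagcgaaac
The SP letters begin at -176 and -92 in Gli3 and at -179 and -124 in Hhip. The 300-base windows were 34.3% G and C in Anxa10, 55.3% in Gkn1 and 52.0% in Cldn18, against 71.0% in Gli3 and 73.7% in Hhip. The E13 stomach peak was 720 bp wide at Gli3 and 231 bp at Hhip. Both windows also had a peak in Sox2 KO stomach and E13 intestine, and none in any wild-type E16 library.

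Away from start sites more of the unshared regions were open in hindstomach, and at start sites more were open in E13 stomach. Of the 122208 unshared regions 56.7% (56.4 to 57.0) were hindstomach-only. Within 1 kb of a listed start site the share was 40.8% (39.7 to 41.8), with 3560 hindstomach-only and 5173 E13-only regions. It was 62.6% at 1 to 10 kb, 58.5% at 10 to 100 kb and 52.5% beyond 100 kb. The hindstomach list was the longer one. With only its widest peaks, at the length of the E13 list, 50.1% of all unshared regions were hindstomach-only. The distance bins were not recomputed at that length. Start sites were also where both libraries held most in common: 77.6% of hindstomach regions and 70.5% of E13 regions there were shared, against 31.4% and 38.6% elsewhere. Chromosome 18 had no listed start site, so its regions count as elsewhere and are absent from the distance bins. Over all positions 38.0% of hindstomach regions (37.7 to 38.3) and 44.5% of E13 regions (44.2 to 44.8) were shared. On the X chromosome 47.8% of unshared regions (46.2 to 49.5) were hindstomach-only, against 57.0% (56.7 to 57.2) on the autosomes.

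**Figure D1:**
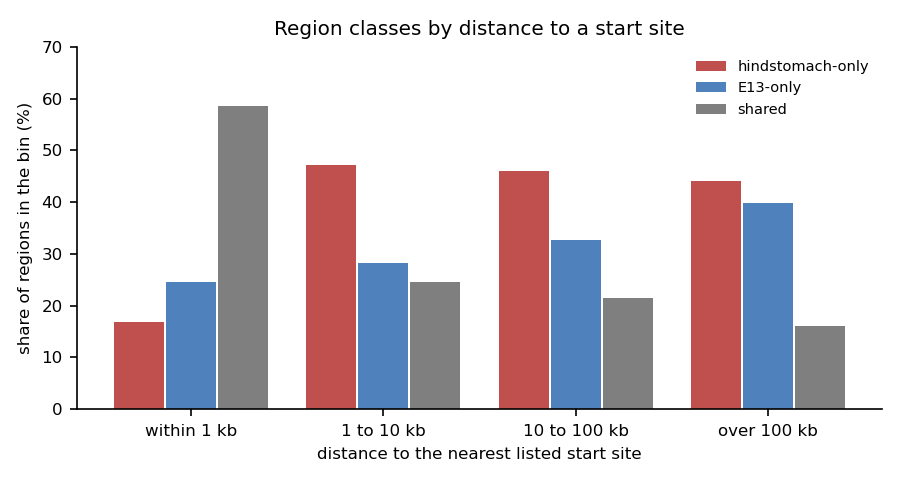
Share of hindstomach-only, E13-only and shared regions (y axis, %, of the regions in each bin) by distance to the nearest listed start site (x axis). Shared regions lead within 1 kb (58.6%) and hindstomach-only regions lead in every bin beyond it. The hindstomach list is the longer one, and the bins were not recomputed at equal list length. Regions on chromosome 18, which has no listed start site, are left out.

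Wide peaks were shared more often than narrow ones. With each list cut into 4 equal parts by width, 68.2% of the widest part in hindstomach and 77.7% in E13 stomach overlapped a peak of the other list, against 18.6% and 20.2% of the narrowest part. The median region was 125 bp when hindstomach-only, 110 bp when E13-only and 280 bp when shared. Within shared regions the 2 libraries covered similar lengths, with a median of 217 bp in hindstomach and 205 bp in E13 stomach. At start sites these medians were 321 bp in hindstomach and 359 bp in E13 stomach, and elsewhere 187 bp and 172 bp. The excess of hindstomach-only regions depended on list length: with only the widest hindstomach peaks, at the length of the E13 list, 50.1% of unshared regions were hindstomach-only. The smallest peak was 89 bp in hindstomach (13.7% of peaks) and 77 bp in E13 stomach (16.6%). With peaks under 89 bp left out the share was 67.95%. This width floor kept all 113117 hindstomach peaks and 74066 of the 96877 E13 stomach peaks, so it shortened the E13 list only.

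Hindstomach-only regions recurred in the other E16 epithelia, and E13-only regions in the Sox2 KO stomach. A peak was present at 44.1% of hindstomach-only regions in forestomach, at 38.6% in small intestine, at 44.5% in colon, at 19.8% in KO stomach and at 7.80% in E13 intestine. For E13-only regions these shares were 8.33%, 7.63%, 8.43%, 39.4% and 23.4%. Shared regions were found in KO stomach in 88.6% of cases and in E13 intestine in 69.4%. No other library had a peak at 24.4% of hindstomach-only regions and at 46.8% of E13-only regions. These regions were narrow, with a median of 99 bp in the hindstomach-only and 92 bp in the E13-only class, and regions with a peak in all 5 other libraries had medians of 243 bp and 195 bp.

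**Figure D2:**
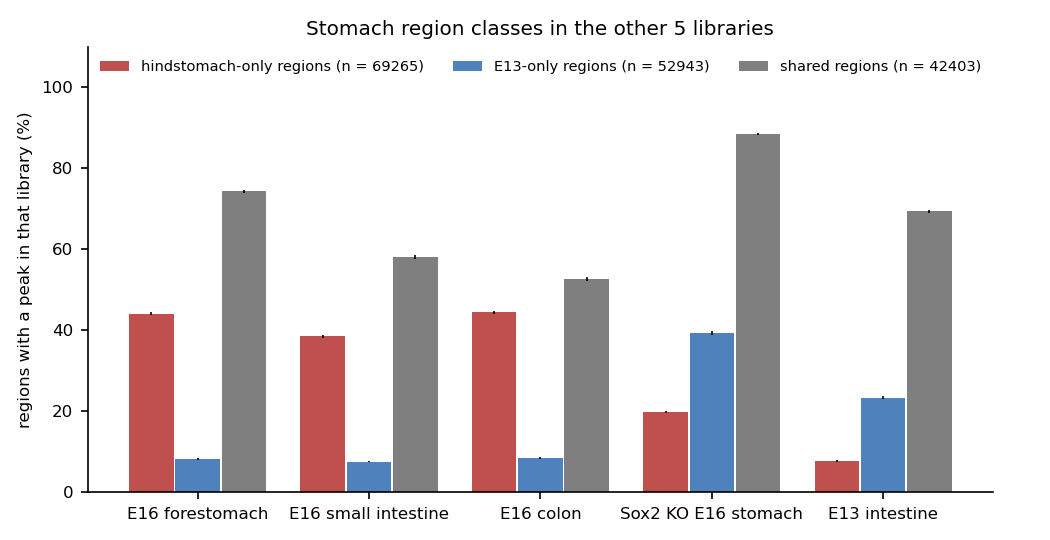
Share of hindstomach-only, E13-only and shared regions with a peak in each of the other 5 libraries (y axis, %; error bars are 95% Wilson intervals). Hindstomach-only regions lie above E13-only regions in the other wild-type E16 tissues (44.1% and 8.33% in forestomach) and below them in KO stomach (19.8% and 39.4%) and E13 intestine.

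The hindstomach-only class divided by the tissues that held it. Of the 69265 regions 21831 (31.5%) had no peak in forestomach, small intestine or colon, 14017 (20.2%) had one in all of these, 11517 (16.6%) in forestomach alone and 7624 (11.0%) in small intestine and colon without forestomach. The KO stomach had a peak at 20.1% of the first set, 10.9% of the second, 37.9% of the third and 5.18% of the last. Of the smaller sets, the 2063 regions in forestomach and small intestine without colon had a KO stomach peak in 49.5% of cases, the 2948 in forestomach and colon in 27.9%, the 3019 in small intestine alone in 27.1% and the 6246 in colon alone in 6.34%. In the E13-only class 81.7% of regions had no peak in any other wild-type E16 library.

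At promoters, taken as 1 kb either side of any listed start site of 17273 protein-coding genes, 10334 genes had a peak in both libraries and 5324 in neither. A hindstomach peak alone was found at 493 genes (2.85%) and an E13 stomach peak alone at 1122 (6.5%). The hindstomach-only promoters were open in KO stomach in 52.7% of cases, in E13 intestine in 22.3% and in forestomach in 43.4%. The E13-only promoters were open in KO stomach in 83.8% of cases, in E13 intestine in 64.4% and in forestomach in 19.3%. Within 5 kb of the start the counts were 973 genes for hindstomach and 1083 for E13 stomach.

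Genes of the stomach were read by the regions assigned to them, each given to the closest protein-coding gene with its body no more than 100 kb away. Unshared regions fell to 17028 genes; 56% of these had more hindstomach-only and 30.1% more E13-only regions, with a median difference (hindstomach-only minus E13-only) of 1 region. With the widest hindstomach peaks at equal list length these genes numbered 7416 and 6654. With the width floor of 89 bp, which removed E13 stomach peaks only, they numbered 11819 and 2795, so a list is read beside these counts.

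Pit and mucous cell genes, which make the mucus layer and its protective proteins, leaned to hindstomach in 14 of the 17 members with an unshared region, and to E13 stomach in 1. They held 64 hindstomach-only and 20 E13-only regions, and 76.2% of their unshared regions were hindstomach-only, against 56.7% of all; the median difference was 1 as for all genes. At equal list length the counts were 14 and 1 too, with the width floor 15 and 1, and with gene bodies extended by 10 kb 13 and 2. Marker lists of other cell types leaned to hindstomach too, with 12 of 15 endothelium members (8 at equal list length) and 11 of 16 blood and immune members (10 at equal length); their part in the stomach lists was not tested. Anxa10, an annexin of gastric epithelium, had 15 hindstomach-only, 1 E13-only and 2 shared regions. Of the 15, forestomach had a peak at 7, KO stomach at 2, small intestine at 1, colon at 1 and E13 intestine at none, and 8 were in hindstomach alone of the 7 libraries. The start site of Anxa10, printed above, was open in hindstomach, forestomach and KO stomach.
Cldn18, the claudin of gastric tight junctions, had 8 hindstomach-only, 0 E13-only and 5 shared regions. Of its 8, forestomach had a peak at 5 and KO stomach at 4. Its upstream start site, printed above, was open in hindstomach, forestomach and KO stomach, and its other listed start was open in hindstomach, E13 stomach and KO stomach. The gene thus had an open start in E13 stomach too, and which start is used in stomach was not examined. Sult1c2, a cytosolic sulfotransferase, had 6 hindstomach-only, 2 E13-only and 1 shared region and a hindstomach-only promoter. Gkn1, a gastrokine secreted by pit cells, had 1, 0 and 1, with a start site open in hindstomach, forestomach, small intestine, KO stomach and E13 intestine. Its relative Gkn3 went the other way at the promoter, which was open in E13 stomach only of these 2 libraries, and had 3, 2 and 3 regions. Muc5ac, the mucin of surface cells, was the 1 member with more E13-only regions, at 1 and 2 with 3 shared.

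Parietal and chief cell genes leaned to hindstomach in 13 of 18 members and to E13 stomach in 3, with 91 hindstomach-only and 47 E13-only regions and a median difference of 1. At equal list length the counts were 10 and 5, and with the width floor 15 and 1. Slc9a4, a sodium-proton exchanger of parietal cells, had 9 hindstomach-only and 0 E13-only regions with 2 shared, and 7 of the 9 were also in forestomach and 7 in KO stomach. Slc26a9, an anion transporter, had 8 and 1 with 3 shared, and Kcne2, the potassium channel subunit that works with Kcnq1 in acid secretion, 7 and 1 with 4 shared. Kcnj15, an inward-rectifier potassium channel, had 13 and 6 with 3 shared, although its promoter was open in E13 stomach and not in hindstomach.
The digestive secretions of chief cells had few regions. Pgc, which encodes pepsinogen C, had a hindstomach-only promoter beside 1 hindstomach-only and 2 E13-only regions, and Lipf, which encodes gastric lipase, had 0 and 4. Hrh2, the histamine receptor that drives acid secretion, had a hindstomach-only promoter and 6 and 2 regions with 2 shared. The proton pump subunits had 0 and 0 regions with 1 shared at Atp4a, and 1 and 0 at Atp4b.

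Endocrine genes were divided: 8 of 17 members had more hindstomach-only regions and 5 more E13-only, with 43 and 50 regions in all and a median difference of 0. At equal list length the order turned, with 4 members towards hindstomach and 8 towards E13 stomach, with extended gene bodies the counts were 6 and 8, and with the width floor 11 and 3. Scg2, a granin of secretory granules, had 4 hindstomach-only and 10 E13-only regions. The endocrine transcription factors Nkx2-2 and Rfx6 had 3 and 6 each. The promoters of Sst (somatostatin), Hdc (the enzyme that makes histamine) and Neurod1 (an endocrine transcription factor) were open in E13 stomach and not in hindstomach.

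Transcription factors of gastric epithelium leaned to hindstomach in 19 of 25 members and to E13 stomach in 4, with 177 hindstomach-only, 116 E13-only and 115 shared regions and a median difference of 1. At equal list length the counts were 17 and 8, with extended gene bodies 14 and 7, and with the width floor 21 and 2. Esrrg, an orphan nuclear receptor, had 33 and 19 with 10 shared over a long gene body, Ehf, an ETS factor of epithelia, 12 and 2 with 6 shared, and Gata6, an endoderm GATA factor, 12 and 5 with 6 shared. Gata4, its partner in the gut, had 10 and 5 with 8 shared, and 8 of its 10 hindstomach-only regions were in forestomach too. Sox2, a foregut factor, had 9 and 6 with 3 shared.
Some regulators stood even or leaned to E13 stomach. Hnf4a, a nuclear receptor of endoderm, had 5 and 5 with 1 shared, and Klf4, a factor of differentiating epithelia, 7 and 6 with 5 shared. Foxa2, a pioneer factor of endoderm, had 8 and 10 with 9 shared. Grhl3, a regulator of epithelial barriers, had 5 and 8 with 3 shared and a promoter open in E13 stomach only. Spdef, a factor of secretory cells, had 0 and 2 with 2 shared. This list had 21 start sites at 14 genes. Over the narrower 300-base window, 6 of the 21 were open in E13 stomach and not in hindstomach, at Foxa1, Foxa2, Klf4, Hnf4a, Esrrg and Grhl3, and 0 the other way, against 8.52% and 2.47% of all windows. For Foxa1, Foxa2 and Klf4 that window was also open in E13 intestine and KO stomach and in no wild-type E16 library. Within 1 kb of any listed start, however, 13 of the 14 genes had a peak in both hindstomach and E13 stomach, all but Grhl3.
Cdx2, the intestinal master regulator, had 2 hindstomach-only, 2 E13-only and 3 shared regions. Its 300-base start-site window had a peak in hindstomach, small intestine, colon, KO stomach and E13 intestine, and none in E13 stomach or forestomach. Within 1 kb of its start both hindstomach and E13 stomach had a peak.

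Structural genes of columnar epithelium leaned to hindstomach in 14 of 20 members and to E13 stomach in 2, with 103 and 43 regions and a median difference of 2.5, against 1 over all genes. With gene bodies extended by 10 kb the counts were 10 and 4, at equal list length 14 and 3, and with the width floor 15 and 2. Forestomach, a squamous tissue in the making, had a peak at 66.0% of these 103 hindstomach-only regions, and KO stomach at 29.1%. Cldn23, a tight-junction claudin, had 13 hindstomach-only and 1 E13-only region with 6 shared, Tspan8, a tetraspanin of gut epithelium, 13 and 4 with 4 shared, and Tjp1, the junction scaffold ZO-1, 12 and 4 with 11 shared. Cdh1, which encodes E-cadherin, had 7 and 1 with 8 shared. Krt8, a keratin of simple epithelia, had 0 and 2 with 1 shared.
Squamous and basal epithelial genes had 8 members towards hindstomach and 9 towards E13 stomach of 20, with 67 and 66 regions and a median difference of 0. Away from gene ends the counts were 7 and 6, at equal list length 6 and 9, and with the width floor 10 and 6. Pitx1, a homeobox factor, had 1 hindstomach-only and 10 E13-only regions beside 6 shared. Of the 10, KO stomach had a peak at 5, E13 intestine at 1 and no other E16 library at any. Trp63, the master regulator of basal squamous cells, had 5 and 9 with 3 shared. Lama3, a laminin chain of the epithelial basement membrane, ran the other way with 12 and 6 beside 9 shared, as did the factor Tfap2a with 10 and 5 and a hindstomach-only promoter.

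**Figure D3:**
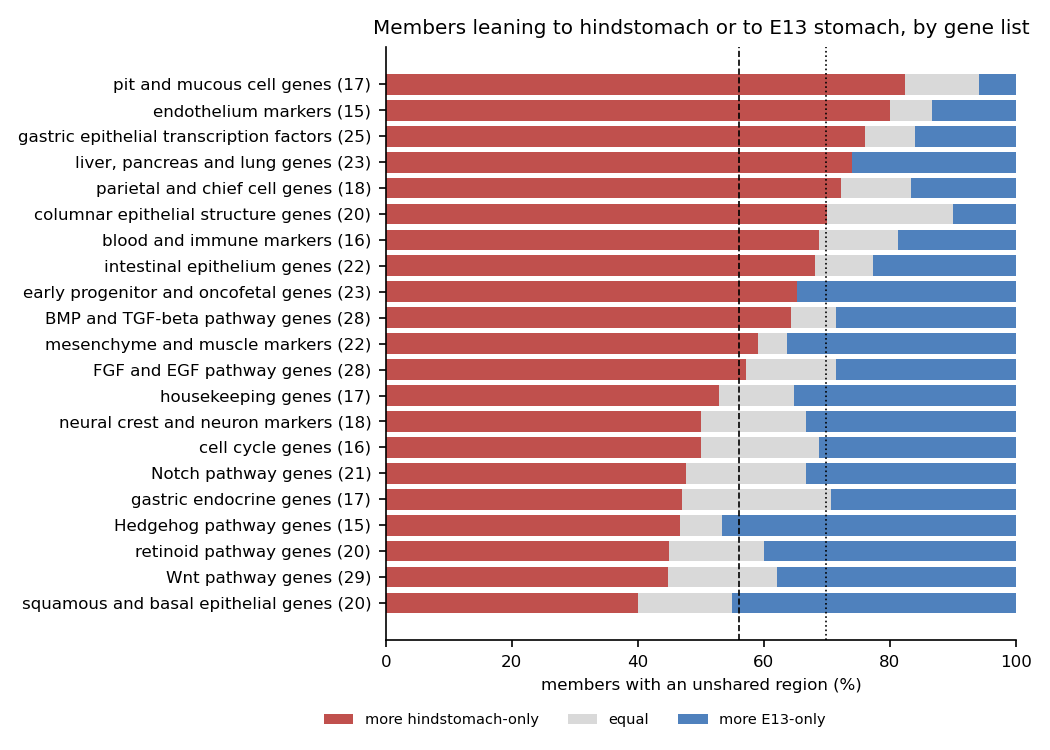
Share of members with more hindstomach-only regions (left), as many (middle) or more E13-only regions (right) among the members of each gene list that have an unshared region (number in brackets; x axis, %). The dashed line marks the share of all genes with more hindstomach-only regions (56%) and the distance from the dotted line to the right edge the share with more E13-only regions (30.1%); pit and mucous cell genes (14 of 17) are at the top.

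Hedgehog pathway genes divided evenly, where most genes leaned to hindstomach: 7 of 15 members had more hindstomach-only and 7 more E13-only regions, with 98 regions each way and a median difference of 0. At equal list length 3 leaned to hindstomach and 10 to E13 stomach, and with the width floor the order was the other way, 9 and 6. The ligand gene Shh had 5 hindstomach-only and 6 E13-only regions with 8 shared. Of the genes that prepare and release the ligand, Hhat, which attaches palmitate to it, had 10 and 5 regions, Disp1, which releases it, 10 and 6, and Scube2, which helps in release, 4 and 2. The receptor gene Ptch1 had 11 and 7 with 1 shared.
Other genes of the receiving side went both ways. Hhip, a decoy receptor that binds the ligand, had 5 and 12 with 2 shared, and of its 12 E13-only regions KO stomach had a peak at 6, E13 intestine at 3 and no other E16 library at any. Gli3, a transcription factor that mostly represses in this pathway, had 9 and 15 with 6 shared, and its start site, printed above, was open in E13 stomach, KO stomach and E13 intestine. In the 180 kb around that start there were 2 hindstomach and 13 E13 stomach peaks. Both hindstomach peaks overlapped E13 stomach peaks, so the 9 hindstomach-only regions of Gli3 lay outside this stretch, and its counts do not stand for the whole gene. Of the co-receptor genes, Boc had 4 and 6 with 2 shared, Cdon 6 and 5 with 7 shared and Gas1 11 and 9 with 4 shared. Gli2, mostly an activator, had 16 and 15 with 11 shared, and the inhibitor Sufu 6 and 6 with 3 shared. The promoters of Gas1, of Kif7, a kinesin of the cilium, of Scube2 and of Gli3 were open in E13 stomach and not in hindstomach. Of the 14 listed promoters 0 were thus hindstomach-only and 4 E13-only, where these classes held 2.85% and 6.5% of all promoters. Over the 300-base window Hhip was E13-only too; within 1 kb of its start both libraries had a peak.
Gli3 and Gas1 act largely in mesenchyme, so markers of that tissue are given here. Of 23 mesenchyme and muscle markers 15 had a hindstomach peak and 18 an E13 stomach peak in the gene body or within 1 kb. Of 16 start sites 5 and 6 were open within 1 kb, 2 in hindstomach only and 3 in E13 stomach only. Over the 300-base window 0 of the 16 were open in hindstomach only and 4 in E13 stomach only. Over all genes these classes held 2.47% and 8.52% of such windows. In all 13 of 22 members leaned to hindstomach and 8 to E13 stomach, with 74 and 62 regions, and 10 and 9 at equal list length. Col1a2, a fibroblast collagen, had 3 and 8 with 2 shared, and Twist1, a mesenchymal factor, had 0 and 3 and an E13-only promoter. Twist2, its relative, went the other way with 10 and 3 beside 4 shared, as did Pdgfra, a PDGF receptor, with 7 and 3 and a hindstomach-only promoter, and the factor Tcf21 with 6 and 3. Their part in the Hedgehog counts was not tested.

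**Figure D4:**
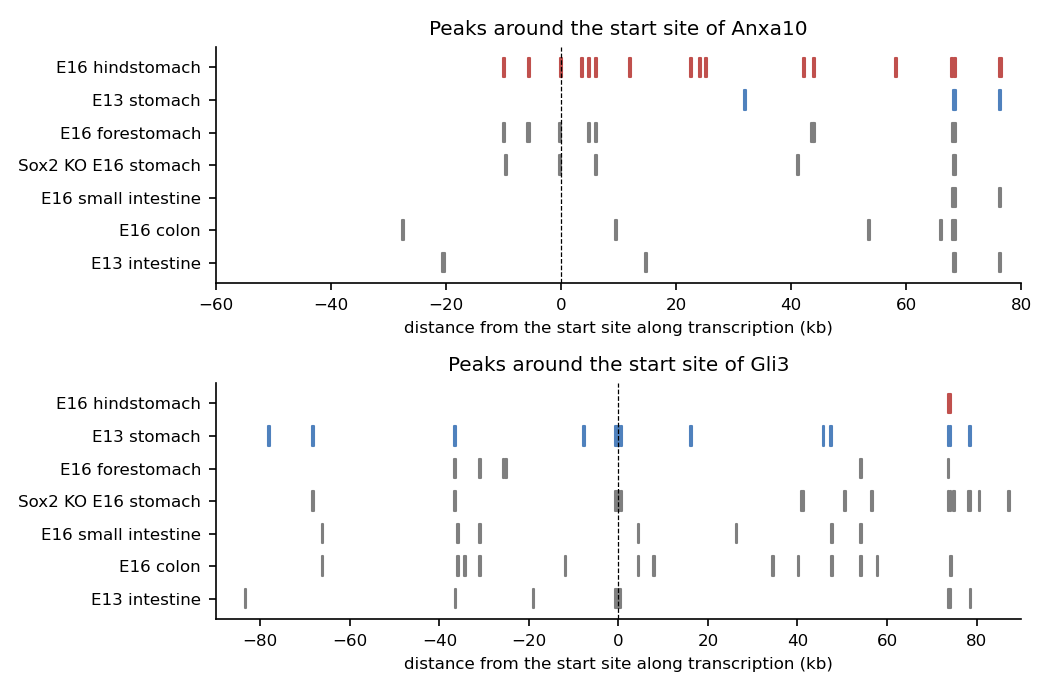
Peaks of the 7 libraries around the start sites of Anxa10 and Gli3 (x axis, distance from the start along transcription, kb; narrow peaks are widened to be visible), with E16 hindstomach above E13 stomach. The stretch drawn around Anxa10 holds 16 hindstomach and 4 E13 stomach peaks, and that around Gli3 holds 2 and 13. The 9 hindstomach-only regions assigned to Gli3 lie outside the stretch drawn.

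At promoters, pathway genes open in 1 library only were nearly all open in E13 stomach. Over the Hedgehog, Wnt, Notch, BMP and TGF-beta, FGF and EGF and retinoid lists, 1 promoter was open in hindstomach only, that of Fgf2, a fibroblast growth factor, and 16 in E13 stomach only. Over all genes these classes held 2.85% and 6.5% of promoters, and over these lists 0.943% and 15.1% of 106. The E13-only promoters included Wnt4, the Wnt receptor partner Lgr6, the Wnt inhibitors Sfrp2 and Nkd1, the receptor Notch3, the Notch ligand Dll3, the ligands Bmp5, Tgfb2 and Fgf9, the receptor Fgfr4, and, of the retinoid genes, the reductase Dhrs3 and the binding protein Crabp1.
By regions, 56% of all genes with an unshared region leaned to hindstomach and 30.1% to E13 stomach, with a median difference of 1. Wnt genes had 13 members towards hindstomach and 11 towards E13 stomach of 29, with 186 and 135 regions and a median difference of 0. At equal list length the Wnt counts were 10 and 15, and with the width floor 21 and 4. Tcf7l2, the transcription factor at the end of the pathway, had 28 hindstomach-only and 10 E13-only regions with 8 shared. The secreted inhibitor Sfrp1 had 11 and 3 and the co-receptor Lrp5 12 and 4. The receptor genes Fzd3 and Fzd1 went the other way, with 1 and 4 and with 3 and 5.
Notch genes had 10 members towards hindstomach and 7 towards E13 stomach of 21, 8 and 10 at equal list length, and 13 and 7 with the width floor. Notch3 had 8 hindstomach-only and 1 E13-only region with 6 shared, Notch1 4 and 7 and Notch2 1 and 5 with 11 shared. The target gene Hey2 had 4 and 0, and Hes1, another target, 9 and 6 with 16 shared.
BMP and TGF-beta genes leaned to hindstomach in 18 of 28 members and to E13 stomach in 8, with a median difference of 2; the counts were 16 and 10 at equal list length and 20 and 4 with the width floor. The receptor gene Tgfbr2 had 17 and 3 with 8 shared, and 11 of the 17 were open in forestomach too. The ligand Bmp2 had 13 and 5 and the signal carrier Smad3 19 and 11, while the ligand Bmp7 had 5 and 9 and the decoy receptor Bambi 0 and 3.
FGF and EGF genes had 16 and 8 of 28, 9 and 15 at equal list length, and 21 and 3 with the width floor. Of the EGF receptor ligands, Areg had 9 and 0 beside 4 shared, Tgfa 11 and 5, Btc 9 and 7, Ereg 1 and 1, and Hbegf 2 and 4. Erbb4, a receptor of that family, had 11 and 22 with 3 shared, Etv4, an ETS factor downstream of FGF, 2 and 7, and Dusp6, a feedback phosphatase, 3 and 6.
Retinoid genes stood at 9 and 8 of 20, at 7 and 9 at equal list length, and at 12 and 3 with the width floor. The retinoic acid receptors all had more E13-only regions, with Rarb at 22 and 31, Rarg at 2 and 5 and Rara at 2 and 5. Of the enzymes that make retinoic acid, Aldh1a2 had 9 and 2, Rdh10 7 and 2, Aldh1a3 4 and 2, and Aldh1a1 5 and 6.

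Early progenitor and oncofetal genes leaned to hindstomach in 15 members and to E13 stomach in 8 of 23, in 10 and 11 at equal list length, and in 18 and 3 with the width floor. Igf2 and the Igf2bp genes differed among themselves. Igf2, the fetal growth factor, had 0 hindstomach-only and 6 E13-only regions with 2 shared, and Igf2bp1, an RNA-binding protein of fetal tissue, 3 and 7. Its relative Igf2bp2 had 13 and 2 with 2 shared, and 7 of the 13 were in forestomach and 5 in KO stomach. Sox11, a SOX factor of embryonic tissues, had 5 and 10 with 2 shared, whereas Sox9, a progenitor factor, had 12 and 5.
Promoters of general functions were open at both stages: all 20 cell cycle and all 19 housekeeping promoters listed were open in both libraries. Their unshared regions numbered 30 hindstomach-only and 18 E13-only for cell cycle genes and 43 and 30 for housekeeping genes.

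The labels were set against marker genes. Of 13 hindstomach epithelium markers 12 had a hindstomach peak in the gene body or within 1 kb and 9 an E13 stomach peak, and all 8 early gut epithelium markers had both. Gkn2 was the marker with no peak in either library.
Markers of other cells were open too. Of 16 endothelium markers 14 had a hindstomach and 12 an E13 stomach peak, of 18 blood and immune markers 12 and 12, and of 18 neural crest and neuron markers 14 and 16. Of their listed start sites, 4 and 4 of 9 were open for endothelium, 4 and 5 of 14 for blood and immune cells, and 7 and 7 of 11 for neural cells. Over all genes 59.8% of promoters were open in both libraries, 2.85% in hindstomach only, 6.5% in E13 stomach only and 30.8% in neither. The share of all genes with a peak in the body or within 1 kb is not given here. Whether these cell types were present was not tested. Marker start sites open in neither library included those of Ptprc, the pan-leukocyte antigen, Klf1, an erythroid factor, and Tek, an endothelial receptor. Those open in both included Runx1, a blood stem cell factor, and Kdr, an endothelial receptor. Regions leaned to hindstomach in 12 of 15 endothelium and 11 of 16 blood and immune members, and to E13 stomach in 2 and 3. Neural members stood at 9 and 6 of 18, with 61 and 62 regions. Over all genes with an unshared region 56% leaned to hindstomach and 30.1% to E13 stomach. Ret, a GDNF-family receptor of the enteric nervous system, had 0 and 7 with 2 shared, and Sox10, a neural crest factor, 0 and 3, while Ednrb, the endothelin receptor of enteric progenitors, had 6 and 3. Genes of neighbouring epithelia leaned to hindstomach in 15 of 22 intestinal members and in 17 of 23 of liver, pancreas and lung, and to E13 stomach in 5 and 6. At equal list length the intestinal counts were 13 and 5 and those of liver, pancreas and lung 9 and 9. Nr1h4, the bile acid receptor, had 8 hindstomach-only and 0 E13-only regions with 4 shared, and Hnf4g, an enterocyte factor, 6 and 1 with 4 shared. Isx, an intestinal homeobox factor, went the other way with 3 and 7, as did Fabp1, a fatty acid-binding protein, with 0 and 2, and the peptidase Dpp4 with 1 and 3. A peak near a gene does not measure its expression.

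Over all protein-coding genes with a body under 100 kb, the largest excess of hindstomach-only regions was 17, at a pair of genes. Ankrd50, an ankyrin-repeat protein of endosomal recycling, had 19 and 2 regions beside 3 shared. Baiap2l1, which builds actin protrusions under the membrane, had 18 and 1 beside 6 shared, and 12 of its 18 were in forestomach, 13 in small intestine and 12 in colon. The other leading genes were Tnfrsf21, a death receptor (20 and 4), Itprid2 (20 and 4), Scaf8 (18 and 3), Anxa10, Tgfbr2 and Tnfaip3, an inhibitor of NF-kappaB signalling (14 and 1). The largest excess of E13-only regions was assigned to Gas8, a component of motile cilia, with 9 and 21, and of the 21 KO stomach had a peak at 18. A run of 9 of the 21 lay outside the gene body, over 15.4 kb between Gas8 and Rhou. Among the other genes were the histamine receptor gene Hrh1 (20 and 31), Rhou, a small GTPase (12 and 22), Pitx1, Mrpl23 (2 and 10), Tmco5 (7 and 15) and Etaa1 (2 and 10). Gas8 and Rhou lie close together on chromosome 8.

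Start sites opened in hindstomach alone were poorer in CpG and richer in AP-1 letters than those opened in E13 stomach alone. The 300-base windows of 21044 start sites were searched for 19 short motifs on both strands. Hindstomach-only windows (519) had a median of 2.67 CpG per 100 bases, E13-only windows (1792) 6.33, windows open in both (10131) 7.33 and windows open in neither (8602) 1.00. The AP-1 letters TGANTCA, bound by FOS and JUN factors, stood in 21.2% of hindstomach-only windows (17.9 to 24.9), 3.24% of E13-only windows, 4.39% of windows open in both, 10.1% of those open in neither and 7.04% of all. Among windows under 5 CpG per 100 bases the shares were 26.3% in hindstomach-only (22.0 to 31.1), 4.87% in E13-only (3.52 to 6.70), 8.33% in both and 10.7% in neither. Among those with 5 or more they were 9.49%, 2.14%, 3.26% and 4.12%. The 110 hindstomach-only windows with a match held 121 matches, and 92 of these had C or G in the middle, the form seen in Anxa10 and Gkn1 above.
The same letters were counted in the windows that each library had open where E13 stomach had no peak. They stood in 26.2% of such windows of forestomach (21.9 to 30.9), 21.2% of hindstomach, 15.6% of small intestine, 15.0% of colon, 9.66% of KO stomach (8.13 to 11.4) and 8.96% of E13 intestine. These sets overlap, since 1 window can be open in several libraries. Of the 110 hindstomach-only windows with AP-1 letters 63.6% (54.3 to 72.0) were open in forestomach and 58.2% in KO stomach, against 42.5% (37.8 to 47.4) and 69.4% of the 409 without.
Other letters were counted in the same windows. GATA letters AGATAA stood in 9.06% of hindstomach-only windows, 5.36% of E13-only windows and 9.68% of all. Under 5 CpG per 100 bases the GATA shares were 12.2% and 10.2%, with intervals that overlap. HNF4 letters CAAAGTC, which share CAAAG with the SOX and TCF letters ACAAAG that were also searched, stood in 7.13% and 3.74%, against 4.17% of all. SP letters GGGCGG stood in 35.8% and 62.8%, against 46.7% of all, and TATA letters TATAAA in 12.7% and 7.42%, against 12.7% of all. ETS letters CCGGAAG were most frequent in windows open in both libraries, at 20.8%, against 6.74% of hindstomach-only and 5.69% of E13-only windows. A match of letters is no measurement of binding.

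**Figure D5:**
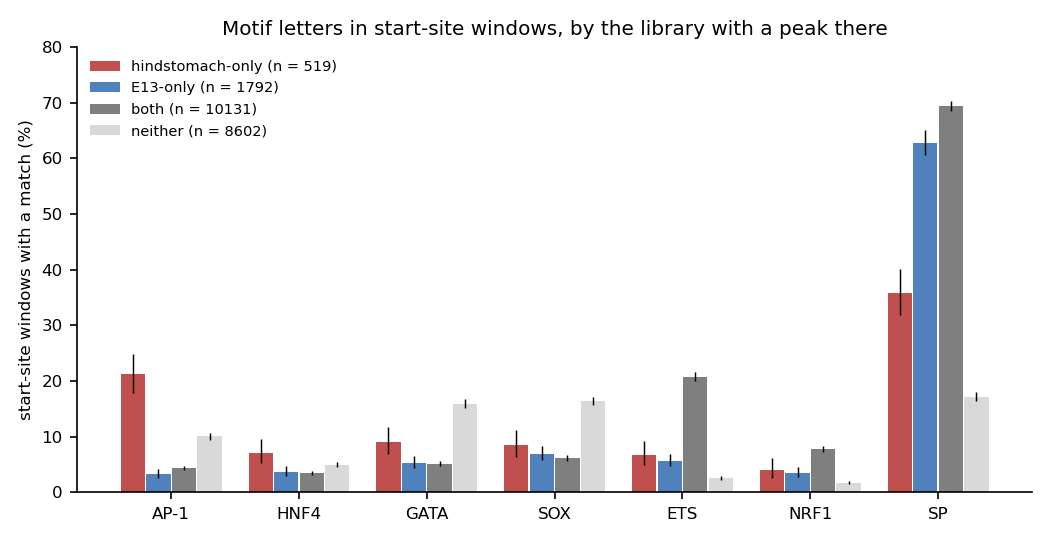
Share of 300-base start-site windows with a match to each motif on either strand (y axis, %; error bars are 95% Wilson intervals), for windows with a peak in hindstomach only, E13 stomach only, both or neither. AP-1 stands at 21.2% in hindstomach-only windows and 3.24% in E13-only windows, and ETS is highest in windows open in both (20.8%).

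MicroRNA genes open in 1 library only were as many on either side: of 1005 hairpins, 45 (4.48%) had a hindstomach peak alone within 1 kb, 45 (4.48%) an E13 stomach peak alone and 148 both. Mature sequences of some members that differ are shown from RefSeq, with the seed, bases 2 to 8, in capitals.
mmu-miR-192-5p: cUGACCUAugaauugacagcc
mmu-miR-194-5p: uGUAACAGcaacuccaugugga
mmu-miR-200a-3p: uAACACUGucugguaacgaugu
mmu-miR-429-3p: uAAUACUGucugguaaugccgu
mmu-miR-205-5p: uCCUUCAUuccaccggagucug
mmu-miR-199a-3p: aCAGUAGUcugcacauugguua
mmu-miR-199b-3p: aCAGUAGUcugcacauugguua
The neighbours Mir192 and Mir194-2, known for their abundance in gut epithelium, lay beside a peak in hindstomach, forestomach, small intestine, colon and KO stomach, and in neither E13 library. Mir200a and Mir429, of the miR-200 family that maintains epithelial identity, did so in hindstomach, forestomach and small intestine, while Mir200b of the same cluster had a peak in small intestine only. On the other side, Mir205, known from squamous epithelium, had a peak in E13 stomach only of the 7 libraries. Mir199a-2 had one in E13 stomach and E13 intestine, and Mir199b in E13 stomach, colon and KO stomach; these hairpins, known from mesenchyme, lie on different chromosomes and give the same 3p sequence and seed. Mir31, listed with gut epithelium, had a peak in hindstomach and colon only, and Mir125b-1 in E13 stomach, E13 intestine and KO stomach only. Others did not differ between the 2 stomach libraries. Mir203, also known from squamous epithelium, and the epithelial Mir200c, Mir141 and Mir375 were open in all 7 libraries, and Mir214, of mesenchyme, in none.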

How the data were processed

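The values are positions of ATAC-seq peaks in 7 mouse libraries, 1 per group. The deposited files give the chromosome, start and end of each peak, with no height, score or count, so their unit is a position other than a signal and depth is unknown. Per the submitters' processing notes the tools named are cutadapt, Bowtie2 and MACS2, with GRCm38/mm10; versions, thresholds and pooling are not given there. No label or header says if starts count from 0 or 1.

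Peaks on chromosomes 1 to 19 and X were merged over the 2 lists where they overlapped by at least 1 bp. A region went to the closest protein-coding gene, up to 100 kb from its body, in the RefSeq table of GRCm38.p6. Start sites came from RefSeq promoter windows, which cover 17273 of 21627 protein-coding genes, so genes outside that table have no promoter class. Motif letters were searched in those windows only, since no genome was used here. Of 462 listed genes 461 were found.

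The comparison, the 21 gene lists, the motifs and the rule for named genes were chosen with earlier results of these data known. The rule takes up to 3 members per list and direction whose excess is largest and at least 2 regions, stomach and signalling members with a promoter open in 1 library only, the 8 genes per direction with the largest excess among bodies under 100 kb, and Sox2, Gata4, Gata6, Hnf4a, Klf4, Shh and Cdx2; a few genes it takes are not reported here. Genes named beyond it (Kcne2, Muc5ac, the proton pump subunits, Cdh1, Foxa1, Gkn2, Ptprc, Klf1, Kdr, Cdon, Gli2, Sufu, Btc, Ereg, Aldh1a1 and Aldh1a3), the miRNA list, the gene families, the CpG classes, the counts of AP-1 letters by library, the width floor and the printed start sites were chosen after values were seen. Class assignment, overlaps and gene distances were tested on simulated data. Intervals of shares are Wilson intervals at 95% for counting error alone. Python 3.11.15, numpy 2.4.6, pandas 2.3.3 and matplotlib 3.10.9 were used.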

Additional observations from a re-analysis of the deposited data

How the results depend on the processing

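Of 188 values recomputed under alternative settings, 131 kept their value or direction, 43 moved and 14 turned their direction. The share of unshared regions that were hindstomach-only was 50.12% with the widest hindstomach peaks at the length of the E13 list, 57.07% with the wider part of each list and 67.95% with the width floor of 89 bp. The floor, an alternative added after the data were seen, removed E13 stomach peaks only. The share of hindstomach regions that were shared was 36.35% where an overlap of at least 50% of the shorter peak was asked for, and 41.91%, 43.11% and 34.31% under the 3 settings above. The share of E13 regions that were shared was 42.56%, 42.03%, 50.19% and 52.54% in the same order. Hindstomach-only promoters numbered 973 with a window of 5 kb. With the width floor 2795 of all genes had more E13-only regions.

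Members with more E13-only regions numbered 7 with extended gene bodies, 8 at equal list length and 2 with the width floor for gastric transcription factors, 2 with extended bodies for pit and mucous genes, 5 at equal length and 1 with the floor for parietal and chief genes, and 4 with extended bodies for columnar genes. Of the endocrine genes 6 leaned to hindstomach and 8 to E13 stomach with extended bodies, 4 and 8 did so at equal length, and 3 leaned to E13 stomach with the floor. Hedgehog members leaning to hindstomach and E13 stomach numbered 3 and 10 at equal length and 9 and 6 with the floor, Wnt members 21 and 4 with the floor, and liver, pancreas and lung members 9 and 9 at equal length.
The order also turned, in members leaning to hindstomach, for squamous genes (7 away from gene ends, 10 with the floor), Wnt genes (11 with extended bodies, 10 at equal length), retinoid genes (5 and 7), and, at equal length, Notch (8), FGF and EGF (9), progenitor (10) and neural genes (4). The KO stomach held 18.49% of hindstomach-only regions with the stricter overlap and 18.55% away from gene ends, and 37.09% and 35.61% of E13-only regions. The cause of these changes was not tested. By construction, equal length leaves out narrow hindstomach peaks only, and the floor narrow E13 stomach peaks only.

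No paired analysis was possible because each group is 1 library and the labels give no replicate numbers. With no peak height or depth, a region missing from a list cannot be told from one under the authors' threshold there.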

Other observations

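Promoters of 8 gene families, added after the data were seen, were counted by class. Of 69 potassium channel promoters 3 (4.35%) were open in hindstomach only and 16 (23.2%) in E13 stomach only, and of 35 collagen promoters 2 (5.71%) and 9 (25.7%). Of 36 keratin promoters 5 (13.9%) were open in hindstomach only and 0 in E13 stomach only, and of 22 Hox promoters 0 and 4 (18.2%). The other families counted were 302 Slc transporters, with 3.97% and 6.95%, 331 Zfp zinc finger genes, with 0.302% and 5.44%, 944 olfactory receptors, with 2.65% and 1.48%, and 61 ribosomal protein genes, with 0 and 0. Over all genes these shares were 2.85% and 6.5%.

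Unshared regions also lay in runs with no region of another class between them. Runs of 5 or more numbered 1332 for hindstomach-only regions, which held 11.2% of the class, and 682 for E13-only regions, with 7.42%. Hindstomach-only regions made up 42.1% of all regions and E13-only regions 32.2%, and a more frequent class forms long runs more readily. The runs were not set against a random order, so these counts do not say which class is more clustered. The longest hindstomach-only run was 15 regions, with no protein-coding gene within 100 kb, and the longest E13-only run was 16, also away from such genes. At Gli3 10 E13-only regions followed each other over 126 kb, and KO stomach had a peak at 5 of them, E13 intestine at 3 and forestomach at 1.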
